A study of Mus musculus with 43 samples.

Results

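The widest H3K4me3 domains of the mouse testis at postnatal day 7 (P7) were examined, that is, the peaks in the top 5% of widths in the first WT H3K4me3 CUT&Tag list that also overlapped a peak of the second WT list. There were 967 such domains among the 19162 peaks of the ranked list, of which 16166 overlapped a peak of the other list. The 15199 remaining shared peaks served as the comparison. CUT&Tag maps a chromatin mark by cutting and tagging the DNA beside an antibody, and a peak list gives the stretches where tags exceed the local background.

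All CUT&Tag lists of WT animals came from C57BL/6J mice, at P7 and at P14. Tubules were treated briefly with collagenase against interstitial cells and then made into cell suspensions with trypsin. The suspensions were passed through a 40 µm strainer meant to remove Sertoli cells. H3K4me3 and H3K27ac had 2 lists at each age, H3R2me2a, H3R8me2a and H4R3me1 also had 2, H4R3me2a had 3, and H4R3me2s had 2 at P7 and 3 at P14. At P7, 2 further H4R3me2s lists came from Prmt1-dKO animals, which carry the tamoxifen-inducible Ddx4-CreERT2 driver and Prmt1 lox/lox and received tamoxifen on 3 days. The Ddx4 promoter limits Cre to the germ line, so somatic cells of these testes keep Prmt1. RNA was measured at P7 in WT and Prmt1-dKO, by bulk RNA-seq of whole testis (3 libraries per genotype) and by Smart-seq2 of spermatogonia sorted for GFP (2 per genotype). The controls of the sort are labelled WT, while the study's methods describe heterozygous Ddx4-GFP-CreERT2, Prmt1+/lox animals. The P14 samples carry spermatogonia in their titles and spermatocyte as cell type, and the peak names in the 3 P14 H4R3me2s lists carry day 17. The labels do not say whether replicates came from separate animals. The study calls the sorted libraries biological duplicates and gives biological triplicates as its minimum unless otherwise stated. The animals behind each sample are not given, so the errors and p-values below describe the spread between these samples only.

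H3K4me3, trimethylation of lysine 4 of histone H3, marks the start sites of active or poised genes and is written by the SET1 and MLL enzymes, which are drawn to CpG-rich DNA. Most such peaks cover the few nucleosomes around a start site, and the widest ones are known from other tissues to lie over regulators of cell identity and over steadily transcribed genes. Asymmetric dimethylation of histone arginines (H4R3me2a, H3R2me2a, H3R8me2a) is deposited by type I enzymes such as Prmt1, symmetric dimethylation (H4R3me2s) by type II enzymes such as Prmt5, and H4R3me1 is the monomethylated form. H3K27ac marks active promoters and enhancers.

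The width threshold was 1794 bp, with 9 domains exactly at it, 1795 bp as the next width inside and 1793 and 1792 bp just outside. The domains had a median width of 1968 bp (quartiles 1866 and 2131 bp), against 938 bp for the other shared peaks, and 8 of them reached 3000 bp. They were wide rather than tall. Their median fold enrichment over the local background was 4.92 against 5.51 in the other shared peaks, and the highest was 7.83 against 24.5. The members were chosen by this width, so these values are descriptions.

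Of the 967 domains, 916 (94.7%) held the start site of a protein-coding gene, against 67.3% of the other shared peaks, and 174 (18.0%, others 6.40%) held start sites of more than 1 such gene. Start sites on both strands lay in 169 domains (17.5%, others 5.63%), whatever their order along the DNA. A wider peak can hold more start sites, and within 500 bp of the summit the shares were 82.3% with a start site (others 75.4%), 11.8% with more than 1 gene (others 6.90%) and 11.3% with both strands (others 6.10%). A further 16 domains held only start sites of other kinds and 35 held none, of which 27 lay inside a protein-coding gene. The domains comprised 1096 genes, 4.98% of the 22028 protein-coding genes annotated, and these are called domain genes here. In the 742 domains with a single start-site gene, the peak reached a median of 777 bp upstream and 1218 bp downstream of the start site, and the downstream arm was the longer one in 74.1% (others 332 and 687 bp, 78.4%). On the X chromosome 20 of 585 shared peaks (3.42%) were domains, and on the Y chromosome 0 of 38, against 967 of all 16166 and 4.48 to 8.16% on the autosomes.

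The DNA beneath the domains was rich in CpG. The 500 bp on either side of the summit had a median ratio of observed to expected CpG of 0.83 in domains and 0.71 in the other shared peaks, and 92.0% and 71.4% respectively reached 0.6. RefSeq promoters (GRCm38.p6) were matched by symbol for 826 domain genes. Their 250 bases upstream of the start site held a median of 23 CpG (quartiles 17 and 31), against 16 for genes of other shared peaks, 3 for genes without an H3K4me3 start site and 10 over all genes. Searched on both strands of these windows, the letters GGGCGG were found in 74.2% of domain genes (60.6% for genes of other shared peaks, 43.8% of all promoters), TATAAA in 4.24% (5.57% and 11.9%) and CCAAT in 37.8% (36.9% and 35.9%). A match describes letters in the window and not a binding site.

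The windows below, bases upstream of RefSeq start sites without annotated exons, show this range of CpG content in genes to which the results return. They are printed 5′ to 3′ on the strand of the gene, with each CpG in capitals. Ptch1 (chr13:63565736-63565985, minus strand, 41 CpG), Arrdc3 (chr13:80885845-80886094, plus strand, 24 CpG) and Foxo1 (chr3:52268087-52268335, plus strand, 20 CpG) are among the widest domains. Cldn11 (chr3:31149670-31149919, plus strand, 19 CpG) is a Sertoli cell gene, and Cdkn2c (chr4:109665373-109665609, minus strand, 6 CpG) was lower in Prmt1-dKO testes. Cst12 (chr2:148789115-148789360, plus strand, 2 CpG) and Aldh1a1 (chr19:20601718-20601960, plus strand, 1 CpG) had, with Gstm2, the only domain promoters with at most 3 CpG among those matched. All these windows lay inside their domains except that of Cst12, whose domain began near the end of the window.
Ptch1: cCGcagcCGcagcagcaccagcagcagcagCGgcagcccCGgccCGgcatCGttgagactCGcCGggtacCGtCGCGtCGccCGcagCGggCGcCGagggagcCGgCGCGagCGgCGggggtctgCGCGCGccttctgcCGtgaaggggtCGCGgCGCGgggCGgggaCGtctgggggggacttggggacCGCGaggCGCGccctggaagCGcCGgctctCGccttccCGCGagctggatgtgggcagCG
Arrdc3: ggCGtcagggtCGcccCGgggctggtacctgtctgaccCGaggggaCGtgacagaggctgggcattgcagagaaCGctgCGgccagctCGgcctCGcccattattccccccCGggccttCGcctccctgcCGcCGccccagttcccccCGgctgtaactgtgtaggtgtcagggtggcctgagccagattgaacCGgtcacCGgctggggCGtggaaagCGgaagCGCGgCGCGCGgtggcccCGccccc
Foxo1: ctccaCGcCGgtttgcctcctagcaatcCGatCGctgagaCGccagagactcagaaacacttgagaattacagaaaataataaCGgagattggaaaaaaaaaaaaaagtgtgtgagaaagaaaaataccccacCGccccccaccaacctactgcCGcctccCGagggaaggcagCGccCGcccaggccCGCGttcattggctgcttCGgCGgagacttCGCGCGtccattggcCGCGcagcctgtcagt
Cldn11: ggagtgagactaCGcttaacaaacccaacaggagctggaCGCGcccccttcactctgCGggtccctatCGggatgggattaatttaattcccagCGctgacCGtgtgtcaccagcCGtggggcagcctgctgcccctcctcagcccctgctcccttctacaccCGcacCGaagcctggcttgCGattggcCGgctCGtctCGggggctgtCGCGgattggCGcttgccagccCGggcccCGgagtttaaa
Cdkn2c: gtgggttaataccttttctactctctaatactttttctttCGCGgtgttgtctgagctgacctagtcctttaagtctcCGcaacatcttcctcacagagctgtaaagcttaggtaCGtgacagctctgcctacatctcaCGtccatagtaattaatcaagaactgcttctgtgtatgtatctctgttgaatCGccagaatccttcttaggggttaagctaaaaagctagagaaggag
Cst12: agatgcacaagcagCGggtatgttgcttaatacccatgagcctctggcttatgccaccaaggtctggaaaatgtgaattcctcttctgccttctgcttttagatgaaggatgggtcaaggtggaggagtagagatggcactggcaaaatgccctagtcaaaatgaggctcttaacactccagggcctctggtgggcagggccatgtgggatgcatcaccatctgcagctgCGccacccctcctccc
Aldh1a1: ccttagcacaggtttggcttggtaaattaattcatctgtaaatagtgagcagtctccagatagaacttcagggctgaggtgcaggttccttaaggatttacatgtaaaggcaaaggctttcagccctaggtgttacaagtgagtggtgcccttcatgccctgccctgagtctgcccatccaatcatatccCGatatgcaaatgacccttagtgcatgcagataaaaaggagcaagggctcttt

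The widest domain of all did not lie at a protein-coding gene. It covered chr17:39843159-39847050 (mm10) at the lincRNA gene Gm26917, was 3892 bp wide, and measured 3475 bp in the second P7 list and 4231 and 5562 bp at P14. It overlapped a peak in every one of the 29 lists of the other marks. The same held for 21 domains in all and for 317 other shared peaks. Among the 21 were the domain of Arrdc3, one of 2660 bp at the pseudogene Gm28437 and some without a start site. The shares of domains with a single arginine mark are therefore also given without the 21 where they differ.

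The next domain was that of Cdk6, a cyclin-dependent kinase of the G1 phase, at chr5:3341219-3344690. It was 3472 bp wide in the ranked list, 3150 bp in the other P7 list and 3323 and 3396 bp in the P14 lists. Its TPM (a transcript level scaled to transcript length and library total) was 4.22 and 25.3 in the WT Smart-seq2 libraries and 28.7, 33.6 and 19.2 in the WT bulk libraries. The Smart-seq2 libraries thus differed more from each other than the bulk libraries did.

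The other genes of the 12 widest protein-coding domains included regulators of chromatin and of signalling. Kmt2e, a member of the MLL family, had a domain of 3175 bp (2753 bp in the second P7 list, 2778 and 2899 bp at P14) and a TPM of 99.5 and 63.3 in sorted WT spermatogonia against 28.8, 29.8 and 22.1 in WT testis. It was higher in both sorted libraries than in all bulk libraries. Nipbl, which loads cohesin onto DNA, had 3007 bp (1992 bp, then 2319 and 988 bp at P14) and a TPM of 9.09 and 12.4 against 17.6, 18.8 and 14.6. Phf12, a subunit of a Sin3 corepressor complex, had 2782 bp but only 1503 bp in the second P7 list, and a TPM of 15.6 and 21.4 against 59.7, 60.1 and 49.3. For Nipbl and Phf12 all bulk values lay above both sorted ones.

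Jag1, a Notch ligand, had a domain of 3089 bp (2660 bp, then 2644 and 1685 bp at P14) and a TPM of 14.0 and 11.8 in sorted spermatogonia and 10.4, 10.5 and 9.95 in testis. Ptch1, the Hedgehog receptor and a gene of peritubular cells, kept its width, with 2820 bp in the ranked list, 2801 bp in the second and 2765 and 2698 bp at P14. Its TPM was 25.4 and 4.04 in sorted spermatogonia and 51.7, 53.9 and 43.6 in testis, so the sorted libraries disagreed by more than any bulk pair. Cpeb2, which binds cytoplasmic polyadenylation elements, Tsc22d2 and Irf2bpl also kept theirs, with 2937, 2931 and 2783 bp in the ranked list, at least 2555 bp in the second and at least 2509 bp at P14. Irf2bpl was at 11.3 and 21.6 TPM in sorted spermatogonia and 76.9, 79.4 and 69.0 in testis, while Cpeb2 and Tsc22d2 overlapped between the assays.

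Adgrl2, an adhesion G protein-coupled receptor (3262 bp), and Adamts9, a secreted protease (3104 bp), stood out for RNA found mainly in whole testis. Adgrl2 had a TPM of 6.19 and 6.62 in sorted spermatogonia and 106, 104 and 101 in testis. Adamts9 was at 0 and 2.45 against 32.4, 31.6 and 29.0, and its domain measured 2041 bp in the second P7 list and 1301 and 1241 bp at P14. The domain of Arrdc3, an arrestin-domain protein, was likewise 3091 and 3014 bp at P7 and 1269 and 1243 bp at P14, with a TPM of 11.6 and 10.98 against 54.8, 56.2 and 43.7. For these 3 genes the assays did not overlap.

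Widths were reproduced in part by the second P7 list, which the rule used only for overlap. There the peaks over domains had a median of 1816 bp, against 872 bp over the other shared peaks, and 627 (64.8%) were in that list's own top 5%, which began at 1705 bp, against 2.39% of the others. In 143 domains (14.8%, others 3.64%) the second list had more than 1 peak in place of the single wide one. Ubb, a polyubiquitin gene, was such a case of disagreement, with 2510 bp in the ranked list and 1194 bp in the second, then 1748 and 2382 bp at P14. Myc, chosen here after its values were seen, had 2642 bp against 739 bp, and 817 and 804 bp at P14.

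**Figure D1:**
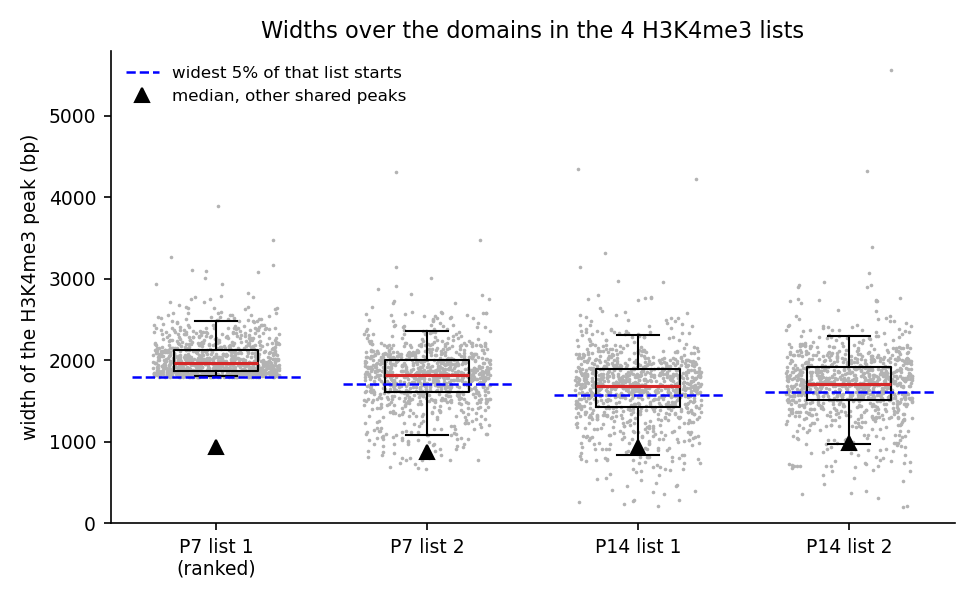
Width in bp of the H3K4me3 peak over each domain (grey points) in the ranked P7 list, the second P7 list and both P14 lists, with the median and quartiles as boxes, whiskers from the 5th to the 95th percentile, dashed lines where the widest 5% of each list begins and triangles at the median of the other shared peaks. The medians are 1968, 1816, 1684 and 1714 bp, and more points fall below the dashed lines in the 3 lists that did not choose the domains.

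Nearly every domain was still an H3K4me3 peak at P14. Of the 967, 966 (99.9%) overlapped a peak in both P14 lists and 0 in neither, against 91.4% and 3.82% of the other shared peaks. The median width over the domains was 1684 bp in the first P14 list and 1714 bp in the second, against 935 and 989 bp over the others. Among the top 5% of both P14 lists were 55.3% (535 domains, 95% Wilson interval 52.2 to 58.4%, counting error only), against 3.09% of the others. This share was 38.8% with the widest 10% of P7 peaks and 30.3% with P7 peaks less than 1000 bp apart joined. Conversely, 47.9% and 45.8% of the widest 5% at P14 lay over a P7 domain. The P14 lists were longer, with 25627 and 26635 peaks against 19162 and 18465 at P7.

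Taking all 4 lists, 428 domains (44.3%) were in the top 5% of each, while 114 (11.8%) were wide in both P7 lists and in neither P14 list. The 506 genes of the first group had a median TPM of 28.6 ± 0.735 (SD, n = 2) in sorted WT spermatogonia and 41.4 ± 3.12 (n = 3) in WT testis. The 113 genes of the domains wide at P7 only had 15.0 ± 1.96 and 51.1 ± 1.11. The group wide at both ages was thus the higher one in sorted spermatogonia and the lower one in testis, by more than the SD in both assays. H3K27ac was present in both P7 lists at 75.9% of the first group and 52.6% of the second. Of the 9 Sertoli cell marker genes described below, 3 (Clu, Cst12 and Kitl) had domains wide at P7 only and 0 had domains wide in all 4 lists.

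The largest losses of width rank between the ages lay at Plec, Prss35, Cst12 and 2 sites without a start site, chr13:42302019-42304013 and chr2:49745244-49747062. Plec, which encodes the cytolinker plectin, had 1977 and 1069 bp at P7 and 388 and 207 bp at P14. The domain of Prss35, a member of the serine protease family, went from 1966 and 1677 bp to 213 and 780 bp, and its TPM was 9.68 and 17.2 in sorted spermatogonia against 297, 281 and 252 in testis. The site on chromosome 13 had 1995 and 1936 bp at P7 and 235 and 658 bp at P14, and that on chromosome 2 had 1819 and 1914 bp and then 265 and 810 bp.

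The largest gains of rank were at Ikzf5, an Ikaros-family zinc finger gene, Grk6, a G protein-coupled receptor kinase, Morc2a and Gkap1. Their peaks in the second P7 list were also narrow, at 831, 842, 797 and 670 bp, where the ranked list had 1868, 1909, 2070 and 1795 bp. At P14 they measured 1528 and 1757 bp, 1716 and 1731 bp, 1764 and 1833 bp, and 1665 and 1838 bp. Against the ranked list alone, only Gkap1 was wider at P14, and in 1 of the 2 lists. A site on chromosome 18 without a start site had 2005 and 727 bp at P7 and 1963 and 1740 bp at P14.

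Domain genes were expressed in both assays. Their median TPM was 25.1 and 23.5 in the 2 WT Smart-seq2 libraries (24.3 ± 1.08) and 43.0, 44.3 and 39.7 in the 3 WT bulk libraries (42.3 ± 2.36). Genes of other shared peaks had 18.0 ± 1.11 and 25.1 ± 0.873, and genes without an H3K4me3 start site 0 and 0.04. With P7 peaks less than 1000 bp apart joined before ranking, the Smart-seq2 median of domain genes was 15.4. That is below the 18.0 of the genes of other shared peaks, which was taken without joining. Of the 1095 domain genes in the RNA tables, 1013 (92.5%, others 82.8%) reached a mean TPM of 1 in both assays, 72 only in testis, 1 only in sorted spermatogonia and 9 in neither. Of the 1095, 47 were at 0 in 1 WT Smart-seq2 library and at 1 TPM or more in the other, while 0 were so between the Prmt1-dKO libraries, so single low WT Smart-seq2 values are uncertain.

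Within the domains, the narrowest had genes with more RNA than the widest in sorted spermatogonia. The median TPM was 22.3 and 20.5 in the WT libraries for genes of the 241 widest domains, and 26.0 and 25.1 for those of the 243 narrowest, without overlap. In WT testis the medians were 40.4 ± 3.18 and 39.7 ± 2.21, a difference within the spread of the libraries. The domain genes with the highest levels in sorted spermatogonia were Rpl41, Ubb and Oaz1. Rpl41, a ribosomal protein gene, was at 4639 and 5110, Ubb at 3903 and 3290, and Oaz1, which encodes ornithine decarboxylase antizyme, at 3029 and 2883. All 3 were lower in testis, with the highest bulk values at 3942, 2076 and 1402.

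More domain genes stood higher in whole testis than in sorted spermatogonia than the reverse. In 598 of the 1095 (54.6%, others 45.2%) all 3 WT bulk values exceeded both WT Smart-seq2 values, and in 274 (25.02%, others 28.5%) the order was opposite. At a difference of at least 5-fold between means and a mean of at least 10 TPM, 212 domain genes (19.4%, others 12.01%) were on the testis side and 24 (2.19%, others 2.62%) on the sorted side. TPM of the 2 assays was scaled separately and the library types differ, so these are side-by-side levels without a test, and in bulk RNA fewer cells of a type and less RNA per cell cannot be told apart. The summed TPM of 23 Sertoli cell genes was 8551 to 9194 in WT testis and 444 and 498 in sorted WT spermatogonia, that of 16 germ cell genes 919 to 1070 and 2827 and 3016. Tex101, on the germ cell list, alone had a mean of 1584 in sorted cells and 71.5 in testis. The 29 meiosis genes stood at 645.5 to 772.6 and at 3922 and 3763. Differentiating spermatogonia (2091 to 2338 against 2062 and 1874) and stem cell self-renewal (540 to 629 against 387 and 390) were instead higher in testis. The bulk libraries are labelled as spermatogonia, but held more RNA of the Sertoli list than of the germ cell list.

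Of the genes higher in sorted spermatogonia, Ell2, a transcription elongation factor, had a TPM of 86.4 and 94.2 against 6.12, 6.56 and 4.12. Ccne2, a cyclin of the G1/S transition, had 178 and 190 against 14.9, 17.5 and 17.9. Ube3a, a ubiquitin ligase, had 263 and 324 against 25.9, 30.9 and 20.8. On the other side, Aldh1a1, a retinaldehyde dehydrogenase, was at 0.07 and 5.78 against 881, 843 and 862, and Gstm2, a glutathione transferase, at 111 and 172 against 2070, 1925 and 2017. Serpinh1, a collagen chaperone, was at 3.13 and 0 against 475, 431 and 466. These 6 were drawn from genes already chosen for a large difference between the assays. Their separation without overlap is therefore part of that choice and not a further result.

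The 3 domain genes with CpG-poor promoters, Aldh1a1, Cst12 and Gstm2, were singled out by their sequence after their values had been seen. Their domains measured 1831, 2287 and 1829 bp in the ranked list and 1698, 2071 and 1560 bp in the second. At P14 they measured 551 and 559 bp, 686 and 393 bp, and 451 and 593 bp. All 6 P14 widths lay below the median of the other shared peaks, and all 3 genes were higher in testis than in sorted spermatogonia.

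Gene lists of cell types and pathways differed in how many members had a start site in a domain, where 4.98% of all protein-coding genes did. Among the cell type lists, 9 of 23 Sertoli cell genes (39.1%) were domain genes, 3 of 16 genes of differentiating spermatogonia, 2 of 30 genes of spermatogonial stem cells and 1 of 11 peritubular genes. None of 16 general germ cell genes was, nor any of 29 meiosis, 18 spermatid, 15 Leydig, 13 macrophage or 12 endothelial genes. Among the pathway lists, 13 of 33 splicing factors (39.4%), 9 of 34 genes of growth control, 6 of 23 genes of the H3K4 methylation machinery, 9 of 36 other chromatin regulators, 6 of 24 immediate early genes, 3 of 21 Polycomb genes, 3 of 20 housekeeping genes and 0 of 9 arginine methyltransferases were. Of gene families, 2 of 6 Gata, 2 of 19 Sox, 22 of 391 Zfp and 4 of 76 ribosomal protein genes had a domain, and none of 39 Hox or 1092 olfactory receptor genes. The lists were written with earlier results of these data known, and the shares carry no test.

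**Figure D2:**
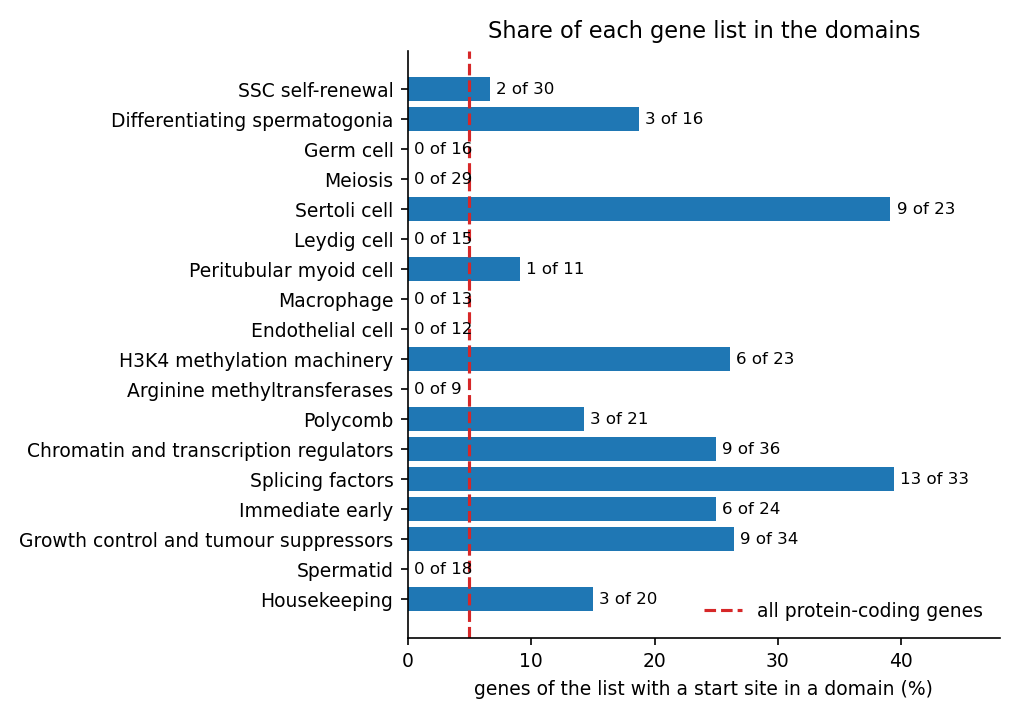
Share in percent of each gene list whose members have a start site in a domain (bars, with the number of genes), with the share over all protein-coding genes as a dashed line at 4.98%. The bars of splicing factors (39.4%) and Sertoli cell genes (39.1%) are the longest, and those of germ cell, meiosis, spermatid, Leydig, macrophage and endothelial genes and of the arginine methyltransferases are at 0.

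Among spermatogonial genes, Foxo1, a transcription factor of stem cell maintenance, had one of the widest domains, with 2756 and 2808 bp at P7 and 2561 and 2749 bp at P14. Its TPM was 13.4 and 16.0 in sorted WT spermatogonia and 22.6, 25.6 and 20.7 in WT testis. Sall4, a zinc finger factor of undifferentiated spermatogonia, had 1967 and 1679 bp at P7 and 2033 and 2031 bp at P14, with a TPM of 30.3 and 17.1 in sorted cells and 31.1, 42.8 and 32.4 in testis. Both were thus wide in both P14 lists.

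Of the genes of differentiating spermatogonia, Rara, a retinoic acid receptor, had a domain of 1953 bp in the ranked list, 1423 bp in the second and 659 and 1209 bp at P14. Dnmt3b, a de novo DNA methyltransferase, had 1956 and 1516 bp and then 1518 and 1528 bp. Rara stood at 25.8 and 19.6 TPM in sorted cells and 95.4, 83.4 and 87.5 in testis, and Dnmt3b at 31.2 and 21.9 against 32.6, 37.1 and 28.6. The assays separated for Rara and overlapped for Dnmt3b. The third gene of that list, Kitl, is also a Sertoli cell gene and is described with those.

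The H3K4 methylation machinery was represented by Kdm6a, Setd1a, Kdm5a, Hcfc1, Paxip1 and Kdm2b. The domain of Kdm6a, an X-linked H3K27 demethylase of the MLL complexes, measured 2481 and 2365 bp at P7 and 1924 and 2024 bp at P14. That of Setd1a, an H3K4 methyltransferase, measured 2119 and 2063 bp and then 1972 and 2041 bp, and that of Kdm5a, an H3K4 demethylase, shared with the start of Ccdc77, 2078 and 2005 bp and then 2032 and 1809 bp. These 3 were wide in all lists.

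In sorted WT spermatogonia Setd1a had a TPM of 121 and 144 and Kdm5a of 126 and 161, against 56.6, 54.4 and 52.7 and 42.6, 47.6 and 34.3 in testis. Kdm6a had 12.3 and 7.91 against 15.7, 17.6 and 13.1. Setd1a and Kdm5a were higher in the sorted cells and Kdm6a in testis. Of the Polycomb genes, Ezh2, the H3K27 methyltransferase, and Eed, its partner, had domains of 1943 and 2013 bp. Eed was at 161 and 186 TPM in sorted cells and 74.6, 85.3 and 86.3 in testis.

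The 13 splicing factors with a domain, among them Srsf1, Srsf2, Srsf3 and several Hnrnp genes, had a median of the WT mean TPM of 351 in sorted spermatogonia and 489 in testis, against 238 and 331 over the whole list. Hnrnpk, an RNA-binding protein, shared a domain of 2550 bp (2586 bp, then 2495 and 2431 bp at P14) with the divergent gene Rmi1 and was at 1252 and 1057 TPM in sorted cells and 746, 792 and 662 in testis. Both sorted values thus lay above all bulk values. Of the immediate early genes, Junb, a subunit of AP-1, had a domain of 2341 and 1995 bp at P7 while its TPM was 0 and 0 in sorted WT spermatogonia and 10.1, 9.88 and 14.0 in testis.

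The 9 Sertoli cell genes with a domain are markers of the somatic cells that line the tubule. They were Inha, the inhibin alpha subunit, the transcription factors Sox8 and Gata4, the tight junction gene Cldn11, the secreted proteins Clu and Cst12, the germ cell ligands Kitl and Gdnf, and Aard. Inha (in a domain with Obsl1) had 2585 and 2880 bp at P7 and 1847 and 1543 bp at P14. Sox8 had 2377 and 2163 bp, then 1193 and 1776 bp. Cst12 had 2287 and 2071 bp, then 686 and 393 bp. Both P14 lists gave a narrower peak than either P7 list for each of these 3.

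The others were alike in this, with the exception of Gdnf, so that 8 of 9 were narrower in both P14 lists than in either P7 list, as were 524 of all 967 domains (54.2%). Clu went from 2196 and 2183 bp to 776 and 707 bp, Kitl from 2087 and 2058 bp to 1059 and 858 bp, and Aard from 1966 and 1592 bp to 737 and 706 bp. Gata4 went from 2015 and 1927 bp to 1608 and 1367 bp, and Cldn11 from 1877 and 2406 bp to 1628 and 697 bp. For Gdnf the ages overlapped, with 1802 and 1606 bp and then 1278 and 1607 bp. The study checked the strained suspensions for Sertoli cells, by staining and marker RNA at P7 and by Sox9 and Ddx4 RNA at P14. The part of remaining Sertoli cells in these widths was not tested.

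The RNA of these genes was found mainly in whole testis. In sorted WT spermatogonia and WT testis respectively, the TPM of Clu was 118 and 110 against 2504, 2528 and 2718. Aard had 20.4 and 35.5 against 1638, 1648 and 1761, and Cst12 had 83.2 and 97.1 against 985, 978 and 1039. Gdnf, the ligand that sustains spermatogonial stem cells, was at 0 in both sorted libraries and at 16.1, 12.8 and 12.8 in testis.

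Inha was at 46.5 and 59.5 TPM in sorted cells against 974, 834 and 946, and Gata4 at 7.73 and 15.3 against 245, 216 and 209. Cldn11 stood at 57.2 and 21.2 against 226, 240 and 239, Kitl at 12.8 and 8.96 against 113, 123 and 89.4, and Sox8 at 0 and 15.5 against 92.3, 87.5 and 79.1. For all 9 genes every WT bulk value exceeded both WT Smart-seq2 values. At P7, 8 of the 9 domains held none of the 5 arginine marks in at least 2 lists, as did 44.2% of all domains, and that of Cldn11 held 1.

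**Figure D3:**
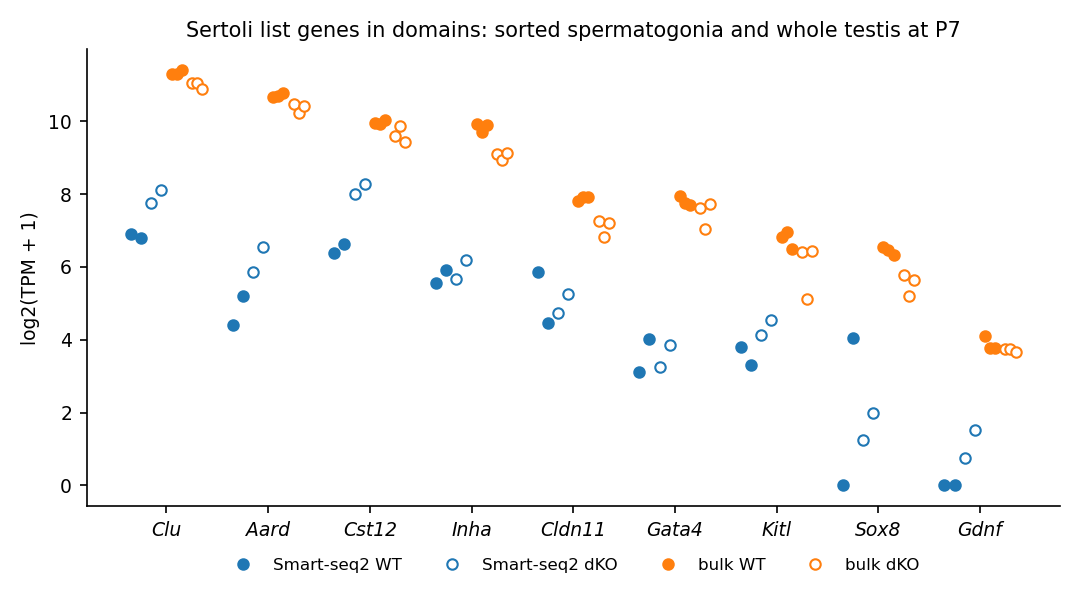
Level of the 9 Sertoli cell list genes with a domain, as log2(TPM + 1), in each Smart-seq2 library of sorted spermatogonia (blue) and each bulk library of whole testis (orange) at P7, WT filled and Prmt1-dKO open, 1 point per library. The filled orange points lie above the filled blue points for every gene, from Clu, at 2504 to 2718 TPM in WT testis, to Gdnf, at 12.8 to 16.1.

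The arginine marks and H3K27ac were examined next as marks that the rule did not use. At P7 H3K27ac was the most frequent, over 73.0% and 77.2% of domains in its 2 lists (others 41.9% and 46.6%), followed by H4R3me2s over 55.4% and 51.7% (others 29.7% and 29.4%). H3R8me2a lay over 36.8% and 36.4% (others 17.6% and 18.3%), H4R3me1 over 39.1% and 28.1% (others 20.5% and 15.6%) and H3R2me2a over 34.9% and 31.8% (others 19.3% and 17.9%). The 3 lists of H4R3me2a gave 28.02%, 28.5% and 32.3% (others 14.5%, 15.8% and 16.1%). In each list the share was higher over domains than over the other shared peaks, while among the marks the lists of H4R3me1 overlapped those of H3R8me2a, H3R2me2a and H4R3me2a, and the lists of the last pair overlapped each other.

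Wide peaks offer more bases to overlap. Within 500 bp on either side of the H3K4me3 summit, an equal window for all peaks, the mean shares over domains were 66.0 ± 4.24% for H3K27ac, 40.5 ± 0.877% for H4R3me2s, 26.3 ± 0.509% for H3R8me2a, 22.8 ± 1.53% for H3R2me2a, 22.7 ± 5.27% for H4R3me1 and 20.8 ± 0.940% for H4R3me2a. The ratio of domains to others was then 1.254 to 1.498, against 1.70 to 2.05 over whole peaks. Most peaks of the arginine marks were weak. At a q of at most 0.01, the mean shares were 13.5% for H4R3me2s, 10.03% for H3R8me2a, 6.62% for H4R3me1, 5.58% for H4R3me2a and 4.55% for H3R2me2a, and 42.5% for H3K27ac.

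**Figure D4:**
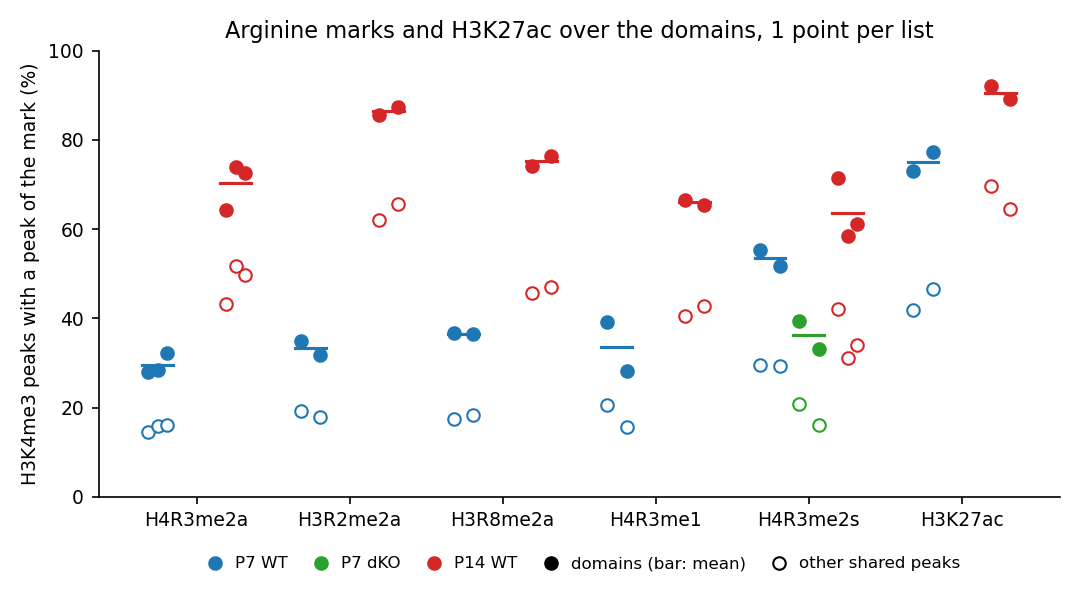
Percent of H3K4me3 peaks that overlap a peak of each mark, 1 point per list, over the domains (filled, with the mean as a bar) and over the other shared peaks (open), at P7 in WT (blue) and Prmt1-dKO (green, H4R3me2s only) and at P14 in WT (red). Filled points lie above the open points of the same list throughout, and the P14 points lie above the P7 points of the same mark.

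With a mark counted as present in at least 2 lists, 427 domains (44.2%) had none of the 5 arginine marks at P7, against 74.0% of the other shared peaks, and 38 (3.93%) had all 5, against 2.99%. The 38 included the 21 domains with a peak in every list, and 317 of the other peaks with all 5 were of this kind. These were kept in the groups below. Genes of domains with more marks had more RNA in sorted spermatogonia. The 451 genes of domains without an arginine mark had a median TPM of 18.2 ± 1.57 in sorted WT spermatogonia, those with 1 or 2 marks 25.3 ± 0.170, and those with 3 to 5 marks 34.4 ± 0.545. In WT testis the medians were 44.6 ± 1.87, 40.9 ± 2.45 and 39.4 ± 3.996, in this order in each of the 3 libraries, with the last step within the SD. In all 3 Prmt1-dKO testis libraries the genes with 3 to 5 marks stood above those with 1 or 2, at 37.5, 25.5 and 34.5 against 36.1, 24.8 and 33.9. H3K27ac in both P7 lists was found at 46.6%, 73.8% and 92.8% of these domains, so the marks cannot be told apart here.

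H3K27ac itself went with higher RNA in both assays. The 764 genes of the 632 domains with it in both P7 lists had a median TPM of 33.1 ± 1.53 in sorted WT spermatogonia and 43.3 ± 2.20 in WT testis. The 132 genes of the 146 domains (15.1%) with it in neither list had 4.21 ± 0.923 and 38.9 ± 1.96, lower in each of the 5 WT libraries. Of these, 32 genes (24.2%) lay below a mean TPM of 1 in sorted spermatogonia, against 3.93% of the genes with H3K27ac. The group without H3K27ac included 5 Sertoli cell genes (Cldn11, Clu, Cst12, Gata4 and Sox8) and the group with it 2.

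Within the 742 single-gene domains, the marks lay on different sides of the start site. H3K4me3 summits had a median position of 157 bp downstream in the ranked list and 163 bp in the second, with 76.3% and 69.8% downstream. The arginine marks had their median summits upstream, at -136, -245 and -258 bp for H4R3me2a, -227 and -268 bp for H3R8me2a, -215 and -223 bp for H4R3me1 and -198 and -185 bp for H4R3me2s. H3R2me2a lay nearer the start site, at -11 and -155 bp, and H3K27ac around it, at -42 and 65.5 bp. At P14 the medians were -103 and -75.5 bp for H3R8me2a, 7 and 37.5 bp for H3R2me2a, and between -216 and -120 bp for the other arginine marks.

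**Figure D5:**
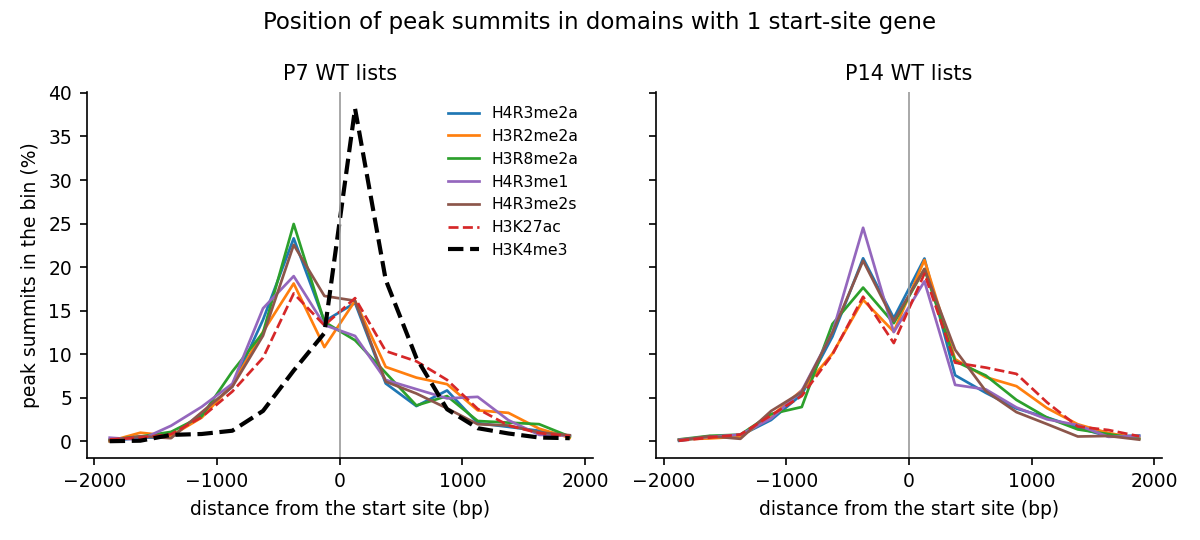
Percent of peak summits in bins of 250 bp by distance in bp from the start site, in the 742 single-gene domains, for each mark with its WT lists pooled, at P7 (left, with H3K4me3) and P14 (right). The H3K4me3 summits peak in the bin just downstream of the start site, while those of the arginine marks are highest upstream at P7, with a lower downstream maximum for H3R2me2a and H4R3me2a, and have an upstream and a downstream maximum at P14.

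At P14 every mark covered more of the domains than at P7. The shares were 64.3%, 73.9% and 72.6% for H4R3me2a, a difference of the means of 40.7 percentage points (exact permutation p = 0.1, two-sided, the smallest possible with 3 against 3 lists; others 32.8 points). They were 85.5% and 87.3% for H3R2me2a, 74.2% and 76.3% for H3R8me2a and 66.6% and 65.5% for H4R3me1, differences of 53.1, 38.6 and 32.4 points (others 45.3, 28.5 and 23.7). In these lists of full length H4R3me2s differed least, with 71.5%, 58.5% and 61.1% and a difference of 10.1 points (exact p = 0.2, others 6.30). With a list left out this difference was 6.26 to 12.7 points. H3K27ac, at 92.1% and 89.1%, differed by 15.5 points, less than the 22.9 points over the other peaks. For the marks with 2 against 2 lists the exact permutation p was 0.33, so none of these designs could reach 0.05.

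The P14 lists of most marks were longer. With the lists of each mark cut to equal length by their best p, the differences were 25.5 points for H4R3me2a, 37.4 for H3R2me2a, 26.7 for H4R3me1, 24.3 for H3R8me2a, 9.77 for H3K27ac and 12 for H4R3me2s. Read numbers behind the lists are unknown, and their part in these differences was not tested. Of the domains marked in at least 2 lists at P7, most were marked at P14 as well, from 83.1% of 166 for H4R3me1 and 90.0% of 341 for H4R3me2s to 96.0% of 175 for H3R2me2a, where 51.8%, 67.0% and 79.8% of all domains were marked at P14. The share of domains with all 5 arginine marks was 39.1% at P14 (others 16.4%), and that with none 10.3% (others 33.6%). For H4R3me2s the rule of at least 2 lists asked for 2 of 2 lists at P7 and 2 of 3 at P14, so it was looser at P14. By it the H4R3me2s share was 35.3% at P7 and 67.0% at P14, against means over the lists of 53.6% and 63.7%.

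Single domains showed this in different degrees. Cdk6 held 2 of the 5 arginine marks at P7 and 5 at P14, Kmt2e and Cdkn2c 3 and 5, Foxo1 1 and 3, and Ptch1 0 and 2. Arrdc3 held all 5 at both ages. Sall4 and Rara held none at either age. Among the Sertoli cell genes Gata4 had 0 and 3, Inha 0 and 2, and Clu, Sox8 and Gdnf 0 at both ages. Only 2 domains overlapped no peak of any other mark at either age, that of Epha2, an ephrin receptor, and one in Unc45b, both named after their values were seen.

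H4R3me2s was the only mark mapped in both genotypes. It lay over 55.4% and 51.7% of domains in the WT lists and over 39.5% and 33.2% in the Prmt1-dKO lists, a difference of -17.2 percentage points (exact permutation p = 0.33, two-sided, the smallest possible with 2 against 2). The lists did not overlap between genotypes. Over the other shared peaks the difference was -11 points, and over the domains at equal list length it was -20.1. In both WT lists and neither Prmt1-dKO list it marked 89 domains, in both of each genotype 111, and in both Prmt1-dKO lists and neither WT list 15. The genes of the 111 had a median TPM of 37.7 ± 3.82 in sorted WT spermatogonia and those of the 89 had 22.4 ± 1.60, while in WT testis they had 39.5 ± 3.16 and 42.8 ± 2.88. H3K27ac was in both P7 lists at 94.6% of the 111 and 70.8% of the 89.

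The RNA of domain genes was then compared by genotype. Prmt1, which is not a domain gene, had a TPM of 350 and 239 in WT and 179 and 151 in Prmt1-dKO sorted spermatogonia, and of 652, 604 and 638 against 410, 433 and 402 in testis, without overlap in either assay. In the bulk libraries edgeR's quasi-likelihood test, with a call at 2-fold or more and a Benjamini-Hochberg FDR under 0.05, called 0 of 1086 domain genes higher in Prmt1-dKO, where 5.32% of all genes tested were called. It called 12 lower (1.105%), where 1.78% of all genes were, so the lower calls were not more frequent than over all genes. Genes of other shared peaks were called higher in 1.24% (126 of 10172) and lower in 1.17%. Of the domain genes 1 (0.0921%, all genes 6.72%) passed an unadjusted p under 0.05 with 2-fold higher RNA. DESeq2 called 1 higher (all genes 6.12%, genes of other shared peaks 1.16%) and 11 lower (1.33% and 1.23%). Without the fold threshold edgeR called 43 higher (3.96%, all genes 10.6%) and 153 lower (14.1%, all genes 8.51%). These counts ran from 6 to 121 and from 55 to 242 with a library left out, and both were highest without the second Prmt1-dKO library (all genes 16.4% and 15.2%). The median log2 fold change of domain genes was -0.12, against 0.02 over all genes. The second Prmt1-dKO library stood apart, with a median TPM of domain genes of 26.9 against 39.6 and 36.0 in the other Prmt1-dKO libraries, and without it these medians were -0.07 and 0.01.

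The 12 were Xkr4, Cdkn2c, Lrch4, Lmnb1, Dcbld2, Chst2, Prr11, Fads2, Fhl4, Klhl11, Tst and Fat4. Cdkn2c, an inhibitor of CDK4 and CDK6, had a TPM of 49.4, 45.8 and 44.6 in WT and 22.4, 15.1 and 16.9 in Prmt1-dKO testis (log2 fold change -1.49, SE 0.12, edgeR FDR 0.000362). Lmnb1, which encodes lamin B1, had 153, 137 and 131 against 61.0, 43.7 and 44.2 (-1.33, SE 0.12, edgeR FDR 0.00064). Xkr4 was low throughout, at 1.84, 2.18 and 1.5 against 0.50, 0.32 and 0.59 (-1.80, SE 0.30, edgeR FDR 0.00478). These 3 were called whichever library was left out, and the other 9 lost the call without at least 1 library, Fhl4 without any of the 6.

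Dcbld2, a transmembrane receptor, fell from 51.0, 48.02 and 42.0 to 23.9, 11.4 and 22.0 TPM (edgeR log2 fold change -1.19, SE 0.19, FDR 0.00396), a call lost without the second Prmt1-dKO library (-0.99). Chst2, a sulfotransferase, fell from 5.65, 5.35 and 5.35 to 2.65, 2.20 and 1.85 (-1.13, SE 0.15, FDR 0.00238), a call lost without the third (-0.996). Lrch4, at 16.3, 16.5 and 13.4 against 10.8, 3.58 and 4.65 (-1.38, SE 0.35, FDR 0.0269), lost its call without any WT library or the third Prmt1-dKO library. Its log2 fold change ran from -2.05 to -1.13 with a library left out.

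Of these genes, the domain of Cdkn2c measured 2385 and 2191 bp at P7 and 2077 and 2014 bp at P14, and H4R3me2s marked it in 2 WT lists and 1 Prmt1-dKO list. Lmnb1 had 1840 and 1904 bp, then 1854 and 1941 bp, with H4R3me2s in all 4 P7 lists. Summed levels of several marker lists moved with genotype in the same libraries. The Sertoli cell list stood at 8551 to 9194 TPM in WT and 6029 to 6561 in Prmt1-dKO testis (of 23 genes, 0 at 0), the Leydig list at 1403 to 1485 and 792 to 995, and the peritubular list at 999.7 to 1062 and 425 to 608. The list of differentiating spermatogonia also fell, from 2091 to 2338 in WT to 1807 to 1934 in Prmt1-dKO testis. The macrophage list was at 174 to 198 and 200 to 244. The endothelial, germ cell, meiosis and stem cell lists overlapped between the genotypes. The part of these lists in the lower calls was not tested.

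In sorted spermatogonia edgeR called 0 of 1073 domain genes in either direction, and 0 of all genes. At an unadjusted p under 0.05 and 2-fold, 84 were higher (7.83%, all genes 13.8%) and 59 lower (5.50%, all genes 4.12%). DESeq2 called 64 higher (5.95%, all genes 7.02%) and 57 lower (5.30%, all genes 3.79%) of 1075. Without the first WT library edgeR called 248 higher (23.0%, all genes 29.5%) and 106 lower (9.84%, all genes 11.96%), and without the second 186 (17.2%, all genes 22.5%) and 110 (10.2%, all genes 11.2%), while it called 0 without either Prmt1-dKO library. In a fit with 1 WT library the spread came from the Prmt1-dKO pair alone, and the lone WT library was assumed to vary like it. The WT libraries had 17103 and 15604 genes above 0 and the Prmt1-dKO libraries 21422 and 20213. Marker lists moved with genotype here as well. The 13 macrophage genes summed to 0.19 and 0 TPM in WT, where 12 and 13 of them were at 0, and to 102 and 118 in Prmt1-dKO, where 2 were at 0 in each library. The Sertoli cell list stood at 444 and 498 in WT and 717 and 971 in Prmt1-dKO. The 29 meiosis genes summed to 3922 and 3763 in WT and 1781 and 1796 in Prmt1-dKO, and the 16 germ cell genes to 2827 and 3016 and then 2186 and 2253. The list of spermatogonial stem cell self-renewal, which holds Sall4, stood at 387 and 390 and then 619 and 662, and the immediate early list, which holds Junb, at 238 and 190 and then 453 and 541. The part of these moves in the values of single genes was not tested.

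Of the spermatogonial domain genes, Sall4 had a TPM of 30.3 and 17.1 in WT and 75.2 and 94.96 in Prmt1-dKO sorted spermatogonia, without overlap and without an edgeR call. In testis it was at 31.1, 42.8 and 32.4 against 39.6, 29.3 and 37.9, where the genotypes overlapped. Foxo1 was at 13.4 and 16.0 against 18.1 and 20.2 in sorted cells. Junb was at 0 and 0 in WT and at 40.5 and 61.0 in Prmt1-dKO sorted spermatogonia, and at 10.1, 9.88 and 14.0 against 14.0, 10.2 and 13.4 in testis. Setd1a stood at 121 and 144 in WT and at 56.6 and 71.1 in Prmt1-dKO sorted cells, again without a call.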

How the data were processed

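CUT&Tag was analysed in 33 WT or Prmt1-dKO peak lists and RNA in 10 libraries. Per the labels, reads were trimmed with fastp 0.23.2 and peaks called with MACS2 2.1.0 on mm10, separately for each sample. Each peak list the authors deposited gives the fold enrichment over the local background, a ratio within the sample, and the −log10 p and −log10 q. The peak names carry a q threshold of 0.05 for H3K4me3 and a p threshold of 0.005 for the other marks. For CUT&Tag the aligner and any control library were not given in the sources used here. Read depth is unknown. The expected counts per gene that the authors deposited came from RSEM and are not normalized, and the TPM the authors deposited beside them were scaled within each library. Totals were 15610392 to 18547103 expected counts in Smart-seq2 and 12396345 to 16598249 in bulk RNA-seq.

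Here, domains were peaks at or above the 95th percentile of width that shared at least 1 bp with the second list. A start site was any transcript start of GENCODE M21 within a peak. Expected counts were rounded, filtered with filterByExpr, scaled by TMM and tested with edgeR 4.0.16 in R 4.3.3, all genes together, with DESeq2 1.42.0 as an alternative. On data simulated for the bulk comparison with 16554 genes, edgeR recovered 47.0% of genes changed 2-fold and 90.0% of those changed 4-fold. On data simulated for the Smart-seq2 comparison with 16443 genes it recovered 0% and 9.0%, and DESeq2 15.0% and 40.0% with 199 false calls. The simulated 2-fold change equals the fold threshold of a call, so genes whose estimate fell below 2-fold by noise were missed even at a low FDR. Shares of domains were compared between lists by exact permutation tests.

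The members and all gene lists were chosen with earlier results of these data known. Genes named in the text were those of the 12 widest domains, of the spermatogonial, somatic and H3K4 lists (at most 10 from the germ lists and 3 from each other list), up to 5 called genes per direction and assay, the 3 with the highest TPM, the 5 largest changes of width rank in each direction and Prmt1. Every Sertoli cell gene with a domain and the remaining examples were named after their values were seen. Sequences are RefSeq promoters of GRCm38.p6, cut where an exon is annotated. Other steps used scipy 1.17.1, pandas 2.3.3, numpy 2.4.6 and matplotlib 3.10.9 in Python 3.11.15. FPKM was not used here.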

Additional observations from a re-analysis of the deposited data

How the results depend on the processing

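Over 26 results, 77 of the values under other settings were counted as unchanged and 37 as moved. With a replicate left out the counts were 62 and 11. A difference between ages or genotypes counted as unchanged kept its sign but not always its size. The H3K27ac difference between P14 and P7 was 15.5 points, and 39.6 at a q of at most 0.01. That of H4R3me2a was 40.7 points, and 25.5 with lists of equal length. With joined peaks the median TPM of domain genes in sorted WT spermatogonia fell below that of the genes of other shared peaks, which was taken without joining. With the widest 10% or 2.5% of peaks there were 1921 or 480 domains. The share of domains among the widest 5% of both P14 lists was 59.3% with widths ranked in the second list, 38.8% and 64.2% with the widest 10% and 2.5%, 30.3% with peaks under 1000 bp apart joined, and 63.4 to 63.9% with either P14 list left out. That of domains with a peak in both P14 lists was 99.9 to 100% with either P14 list left out and 99.5 to 99.9% under the other settings. Within 500 bp of the summit the P7 shares were 66.0% for H3K27ac, 40.5% for H4R3me2s, 26.3% for H3R8me2a, 22.8% for H3R2me2a, 22.7% for H4R3me1 and 20.8% for H4R3me2a. At a q of at most 0.01 they were 42.5%, 13.5%, 10.03%, 4.55%, 6.62% and 5.58%. H3R8me2a was at 35.6% when at least 50% of the shorter peak had to overlap, and at 35.2% without the 21 domains that had a peak in every list, an alternative chosen after seeing the data. Within 500 bp of the summit, also chosen after seeing the data, 82.3% of domains held a start site, 11.8% those of more than 1 gene and 11.3% start sites on both strands. The median TPM of domain genes in sorted WT spermatogonia was 22.7 with the widest 2.5%, 15.4 with joined peaks, 26.1 with the annotated 5′ end alone and 29.1 over genes of at least 1 TPM. In WT testis it was 38.8 with the widest 10% and 35.9 with joined peaks. The causes were not tested.

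Domain genes called in Smart-seq2 numbered 64 higher and 57 lower with DESeq2, and 0 to 248 and 0 to 110 with a library left out. In bulk RNA-seq those higher numbered 1 with DESeq2, 2 without a filter on low counts, 1 with widths ranked in the second list, 43 without a fold threshold and 0 to 3 with a library left out, 3 of them without the second Prmt1-dKO library. Those lower numbered 153 without a fold threshold, where 10.6% of all genes were called higher and 8.51% lower, and 9 to 15 with a library left out. Replicate numbers did not pair the samples, with correlations of same-numbered deviations of 0.08, -0.22 and -0.12 in bulk RNA-seq and 0.02 in Smart-seq2. With the replicate number as a block, edgeR called 1 domain gene higher and 11 lower in bulk RNA-seq and 0 in either direction in Smart-seq2.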

Other observations

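Of the 35 domains without an annotated start site, 26 lay within 3000 bp of a protein-coding start site, at a median distance of 1076 bp over all 35, and 7 lay outside every gene. Domains inside Plxna1 (chr6:89360148-89362542), Trib2 (chr12:15814309-15816684) and Sox4 (chr13:28951511-28953687) lay 885, 863 and 851 bp from the start sites of these genes, and each was named after its values were seen. They measured 2395, 2376 and 2177 bp in the ranked list, 1812, 1742 and 2203 bp in the second, and 1869 and 1814 bp, 1789 and 1727 bp, and 1855 and 2180 bp at P14. Domains at chr17:13550744-13553127 and chr13:74528551-74530788 lay farther from a protein-coding start site, at 180083 and 36477 bp, overlapped a peak in all 29 lists of the other marks, and kept a width of 2384 to 2449 bp and 2238 to 2275 bp in the 4 H3K4me3 lists.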
